A study of Mus musculus with 60 samples.

Results

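Normal brain was compared with the other normal tissues of the same mouse line. The members are the 2 libraries titled brain in the tissue table, of 30 normal tissue libraries and 60 libraries in the series. They were taken by title and by the label that marks a library as normal rather than tumour, without use of any measured value. The 28 libraries set against them came from liver (8), spleen (6), muscle (6), lung (7) and kidney (1). All 30 came from 9 mice labelled Rosa26CD74-NRG1/Flp, a line in which the Flp recombinase removes a stop cassette in the early embryo, so that a CD74-NRG1 fusion is expressed in nearly all tissues. Every mouse, brain donors included, carries this fusion, so no library here is of a wild-type mouse, and the age of the mice is not given in the sources used here. The brains came from the mice numbered M00237 and M00238, which also gave liver, muscle and lung libraries and a sarcoma each. A liver library whose label puts it in the tumour group was left out of normal liver. Sections of fresh frozen tissue were cut on a cryostat for RNA, and the labels do not say which part of the brain the sections held.

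Brain tissue is built from neurons, which signal through synapses, and from glia. Astrocytes clear transmitters and buffer ions and water, oligodendrocytes wrap axons in myelin, and microglia are the resident immune cells. Neurons of different regions make different transmitters, peptides and transcription factors, so these genes tell parts of the brain from one another. In whole tissue, fewer cells of a type and less RNA per cell cannot be told apart.

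Libraries were made by 3' end sequencing (QuantSeq), in which a transcript gives reads near its end whatever its length, and values are given as counts per 1000000 counts of a library (CPM). The brain libraries held 7810440 and 7894883 counts, within the 5799763 to 10033943 of all normal libraries. Mitochondrial genes took 17.0% and 19.8% of brain counts, and haemoglobin genes took 1.52% and 1.38%. A count of 3, taken as the smallest that can be read, is worth 0.299 to 0.517 CPM depending on the library. Each CPM value below is given for M00237 first and M00238 second. A gene was called higher or lower in brain than each tissue when edgeR's quasi-likelihood test gave an adjusted p under 0.05 in the same direction against all 5 tissues. The p given for a gene is the largest of those 5 adjusted values. The test rescales each library by a TMM factor (trimmed mean of M-values), with medians of 1.29 in brain, 0.677 in liver, 0.840 in muscle, 0.983 in kidney, 1.13 in spleen and 1.46 in lung. Relative to the plain CPM values printed here, the fitted differences are therefore shifted down against liver and muscle and up against lung. Kidney has 1 library, which was assumed to vary like the others. Because several tissues came from one mouse, a second fit held the mouse as a block. Its value stands beside most of the list counts and single calls that it changes. In that fit a gene near 0 outside brain could lose its call while its fitted difference stayed large. The log2 difference from the mean of the tissues was 9.37 for Otx2 (9.76 without the block) and 8.46 for Th (9.55 without). A call lost with the block therefore need not mean a small difference.

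The 4 genes given as marks of brain were high in both brain libraries and lower in all 28 others. Mbp (ENSMUSG00000041607) encodes myelin basic protein, which packs the layers of the myelin sheath. It stood at 2799 and 3165 CPM in brain. Other tissues spanned (lowest, median, highest) 0.372, 2.19 and 4.8 CPM in liver, 33.4, 35.8 and 44.0 in spleen, 40.4, 67.3 and 92.3 in muscle and 36.5, 38.8 and 52.4 in lung, with 8.41 in kidney. The groups did not overlap, and the lower brain library was 30.3 times the highest other library, a muscle. Against the equally weighted mean of the 5 tissues the log2 difference was 6.97 (SE 0.39), and the smallest difference from one tissue was 4.84 (SE 0.38), from muscle (largest adjusted p = 1.7e-07). Outside the brain, Mbp kept a clear level in spleen, muscle and lung. Mobp (ENSMUSG00000032517), a myelin protein of the central nervous system, gave 573.0 and 739 CPM in brain and at most 1.43 CPM elsewhere, in a liver. Its lower brain value was 401 times that library (largest adjusted p = 4.4e-06), though with the mouse as a block the largest adjusted p was 0.13.

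Both astrocyte marks were also apart from every other library. Aqp4 (ENSMUSG00000024411), the water channel of astrocyte endfeet, read 90.1 and 145 CPM in brain. Liver gave 0.289, 3.60 and 8.45 CPM (lowest, median, highest), spleen 0, 0.0769 and 0.345, muscle 1.10, 3.51 and 4.98, lung 0, 2.79 and 8.13, and kidney 0.965. The lower brain value was 10.7 times the highest of these, a liver (largest adjusted p = 0.0084). Gfap (ENSMUSG00000020932), the intermediate filament of astrocytes, read 73.2 and 78.3 CPM in brain. Its highest value elsewhere was 6.84 CPM in spleen, where the median was 5.34, while the highest values in liver, muscle and lung were 0.918, 0.331 and 0.303 and kidney gave 0.138. The groups did not overlap (largest adjusted p = 0.00066). The labelled tissue therefore matched its markers in both libraries.

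**Figure D1:**
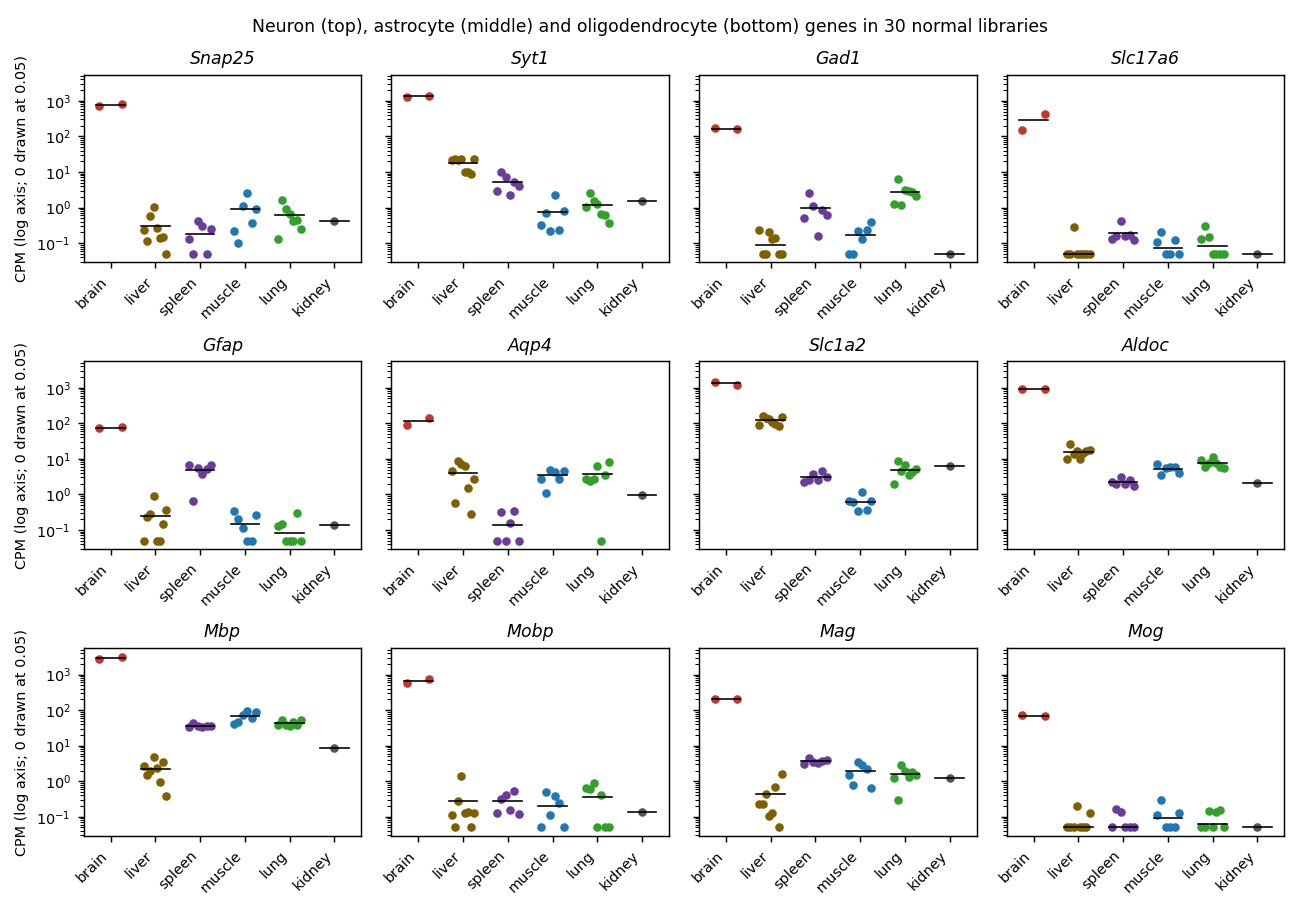
CPM on a log axis (0 drawn at 0.05) of 12 genes in each of the 30 normal libraries by tissue, with 1 point per library and a line at the tissue mean: neuronal genes in the top row, astrocyte genes in the middle and oligodendrocyte genes at the bottom. Both brain points lie above all 28 others for each of the 12 genes, and Mbp keeps clear levels in spleen, muscle and lung.

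Of 21733 genes tested, 5189 (23.9%) were higher and 3820 (17.6%) lower in brain than the mean of the 5 tissues. The stricter call found 1596 genes (7.34%) higher in brain than each tissue and 563 (2.59%) lower than each. Without 1 of the brain libraries the genes lower than the mean numbered 1931 (without M00237) or 1870 (without M00238), and those lower than each tissue 267 or 283. Without the kidney library 883 genes were lower than each tissue. The percentages of the full fit are the background against which the gene lists are read. Over all tested genes the median log2 ratio of the brain mean to the highest tissue mean was -0.89. The median log2 difference from the mean of the tissues was -0.13 with the scaling used and 0.03 with relative log expression scaling. Liver differed from brain in the most genes (6127 higher and 4832 lower in brain) and kidney, with 1 library, in the fewest (2532 and 2703).

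Among genes above 100 CPM in both brain libraries, the 15 furthest above the mean of the tissues are mostly known from neurons. Slc17a6, which loads glutamate into synaptic vesicles, led them with 154 and 432 CPM and at most 0.413 CPM in any other library. Next came Slc6a11, a transporter that takes GABA back into astrocytes, with 231 and 301 CPM against at most 1.05. The others were Nrsn1 and Nrsn2 (neurensins, vesicle proteins of neurons), Myt1l (a neuronal zinc finger factor), Scg2 and Pcsk1n (cargo of peptide vesicles), Cacng2 and Frrs1l (partners of the AMPA type of glutamate receptor), Rph3a (a Rab3 effector in exocytosis), Mobp, Ina (alpha-internexin, a neurofilament), Stmn3 (a stathmin), Tmem130 (a membrane protein) and Grm5 (a metabotropic glutamate receptor). Myt1l stood at 260 and 288 CPM against at most 0.812 CPM elsewhere, and Frrs1l at 339 and 363 CPM against at most 0.598. In all 15 genes the lower brain value lay above the highest of the 28 other libraries. Apart from Mobp, Rph3a lost its call with the mouse as a block (adjusted p = 0.056).

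Of 20 general neuronal genes, all tested, 19 were higher in brain than each tissue, beside 7.34% of all genes. Their median log2 ratio of brain to the highest tissue mean was 6.26, beside -0.89 over all genes. Summed over the list, brain gave 8839 and 9549 CPM, and the highest other library, a lung, gave 604. Snap25, a SNARE protein of vesicle fusion, stood at 711 and 796 CPM and reached at most 2.59 CPM elsewhere, in a muscle, a gap of 274-fold. Nefl, the light neurofilament chain, stood at 501 and 640 CPM and at most 0.827 elsewhere. Stmn2, a growth-associated stathmin, had the smallest gap of those called: 422 and 411 CPM in brain against 263 in the highest lung. Mapt, which encodes the microtubule protein tau, was the member that missed the call. It read 573 and 538 CPM in brain, with up to 288 CPM in lung and 156 in kidney (adjusted p = 0.089 against kidney).

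Machinery of transmitter release followed the same pattern, with 20 of 20 synaptic vesicle genes higher than each tissue (19 with the block) and a median log2 ratio of 4.8. Sv2a, a vesicle glycoprotein, read 695 and 812 CPM against at most 15.4 CPM, in kidney. Complexin Cplx1, a clamp of vesicle fusion, read 342 and 424 CPM against at most 1.21. The release factors shared with secretion elsewhere had smaller gaps: Nsf, the ATPase that takes SNARE complexes apart, read 604 and 657 CPM in brain and up to 93.1 CPM in lung. Stx1a, a plasma membrane SNARE, differed between the brains (48.5 and 10.3 CPM) and lost its call with the mouse as a block (adjusted p = 0.14).

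On the receiving side, 13 of 17 postsynaptic density genes were higher than each tissue (11 with the block; median log2 ratio 3.13). Dlg4, the scaffold PSD-95, read 163 and 140 CPM against at most 18.3. Dlgap1, which binds that scaffold, read 576 and 422 CPM against at most 7.2. The 4 members not called were Shank2, Shank3, Homer1 and Baiap2, and in 3 of them, all but Shank2, a library elsewhere lay above the lower brain value. Homer1 read 60.4 and 27.5 CPM in brain and up to 32.8 in muscle. Arc, an activity-induced postsynaptic gene, was called at 14.9 and 6.71 CPM against at most 3.53, and lost the call with the block (adjusted p = 0.19).

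Glutamate receptor genes were called in 18 of 22 cases (median log2 ratio 4.50) and GABA receptor genes in 12 of 15 tested (median 4.65). With the mouse as a block these counts were 14 and 9. Gria1 and Gria2, AMPA receptor subunits, read 356 and 297 CPM and 324 and 211 CPM. Gria1 also reached 29.2 CPM in lung, while Gria2 stayed at or below 3.65 CPM in all other libraries. Grin2b, an NMDA receptor subunit, read 232.4 and 235.2 CPM against at most 0.995. The 4 glutamate receptor genes not called were Grin2d, Grik3, Grm7 and Grm8, all under 32 CPM in brain. Gabbr2, a subunit of the slow GABA receptor, read 267 and 525 CPM, and its highest other value was 52.5 CPM in a liver. Gabra6, the subunit of cerebellar granule cells, was too low to be tested, with 1 count in M00237 and none in M00238.

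Of 28 genes of voltage-gated channels, 19 were higher in brain than each tissue (16 with the block; median log2 ratio 3.18). Scn2a and Scn8a, sodium channels of axons, read 239 and 189 CPM and 179 and 212 CPM, against at most 1.97 and 1.73 CPM. Kcnq3, which carries the M current that limits repeated firing, read 110 and 138 CPM against at most 3.11. Among the 9 not called were channels of muscle. Scn4a and Cacna1s, the sodium and calcium channels of skeletal muscle, gave 0 and 0 CPM and 0.640 and 0.507 CPM in brain, and up to 4.98 and 82.6 CPM in muscle.

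Neuronal RNA-binding proteins, which set splicing and stability in neurons, were called in 12 of 16 cases (11 with the block; median log2 ratio 5.43). Elavl3 read 287 and 359 CPM against at most 0.816, and Celf4 read 999 and 734 CPM against at most 23.5. Rbfox1, which also acts in muscle, read 258 and 330 CPM in brain and up to 108 in muscle and was not called (adjusted p = 0.076). Rbfox3, known as the neuronal antigen NeuN, read 301 and 213 CPM against at most 9.12 and was called (adjusted p = 4.8e-07).

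Many neuronal genes carry in their promoters a repressor element, RE1, which the factor REST binds to silence them outside neurons. The core of that element was searched for as the letters AGCACC, a gap of any 2 bases and the letters GGACAG, on both strands, in RefSeq promoters of GRCm38.p6 (250 bases before to 50 after a gene's start). The number of letters was chosen after the hits of several lengths had been seen. Of 27025 genes with a promoter, 16 (0.0592%) held the core, in 17 of 32851 promoters. Of the 13 tested genes with it, 9 were higher in brain than each tissue, beside 7.34% of all tested genes. As the length was chosen with hits in view, this count is a description and no test. The sites below are shown because both kinds of gene, called and not called, carry the same core (in capitals). Gad2 makes GABA, Gria2 is an AMPA receptor subunit, Hrh3 is a presynaptic histamine receptor and Scamp5 is a vesicle protein. Robo2, an axon guidance receptor, and Osbp2, an oxysterol-binding protein, were not called.
Gad2 (chr2:22622159-22622182, plus strand): gtggtAGCACCctGGACAGcgcgt
Gria2 (chr3:80802987-80803010, plus strand): attttAGCACCgcGGACAGcgctt
Hrh3 (chr2:180104572-180104595, plus strand): cgggcAGCACCacGGACAGcgccg
Scamp5 (chr9:57468193-57468216, minus strand): tatttAGCACCacGGACAGctcct
Robo2 (chr16:75447351-75447374, minus strand): cccttAGCACCacGGACAGagcac
Osbp2 (chr11:3774789-3774812, plus strand): gcttcAGCACCgcGGACAGcggcc
Hrh3 read 51.0 and 57.0 CPM in brain against at most 0.888, and Scamp5 read 129 and 114 CPM against 16 in kidney. Robo2 read 38.5 and 37.4 CPM in brain and up to 26.5 in lung (adjusted p = 0.29). Osbp2 read 33.3 and 30.5 CPM in brain and 29.6 in kidney (adjusted p = 0.93). The other 7 tested genes were Fam163b, Sptbn4, Ttc9b, Fbll1 and Ogdhl, all called, and Lhx3 and Lca5, not called. A match of letters is a description of these windows and no measure of binding.

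Genes of both main transmitters were present in both brains. Of 12 genes of glutamatergic neurons, 7 were higher than each tissue (median log2 ratio 3.72), and of 15 of GABAergic neurons, 8 were (median 3.99). With the mouse as a block these counts were 6 and 5, and without the brain of M00237 they were 5 and 5. Slc17a7, the vesicular glutamate transporter of cortex, read 148 and 50.5 CPM, the reverse order of Slc17a6, and at most 1.04 CPM elsewhere. Camk2a, a kinase of excitatory synapses, read 986 and 409 CPM against at most 37.7 in muscle. Nrgn, a calmodulin-binding protein of forebrain neurons, read 1988 and 661 CPM in brain but up to 845 in lung, so that its groups overlapped although the test was passed (adjusted p = 0.011). Slc17a8, the third transporter of this kind, was below 1 CPM in brain (0.768 and 0.760) and highest in liver, at up to 23.1 CPM.

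For GABA, the synthetic enzymes Gad1 and Gad2 read 170 and 159 CPM and 210 and 225 CPM, against at most 6.36 and 1.05 CPM elsewhere, both in lung. Slc32a1, which fills vesicles with GABA, read 133 and 96.6 CPM against at most 0.615. Sst, the peptide of one interneuron class, read 152 and 82.6 CPM against at most 0.454. Its call (adjusted p = 1.7e-05) was lost with the block (adjusted p = 1.0). Pvalb, a calcium buffer of another interneuron class and of fast muscle fibres, read 96.4 and 145 CPM in brain and up to 225 in muscle, and was not called. Of 13 genes of other transmitters 9 could be tested and 4 were called, 1 with the block and 1 without the brain of M00237. Those 4 were Th, Slc6a3 and Slc18a2, of dopamine neurons, and Slc5a7, the choline transporter, which read 7.43 and 6.97 CPM (adjusted p = 0.017, and 0.051 with the block). Tph2 and Slc6a4, of serotonin neurons, stood at 0.768 and 0 CPM and at 0.768 and 0.380 CPM.

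Peptide genes were called in 18 of 22 cases (median log2 ratio 5.45), 12 with the block and 12 without the brain of M00237. Cck, cholecystokinin, read 184 and 175 CPM in the brains against at most 0.827 in kidney, and Chgb, a granin that packs dense-core vesicles, read 210 and 208 CPM against at most 1.55. These were even between the brains, while Npy, neuropeptide Y, read 69.5 and 22.7 CPM, and Penk, Cartpt, Oxt and Avp are given with the regions.

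**Figure D2:**
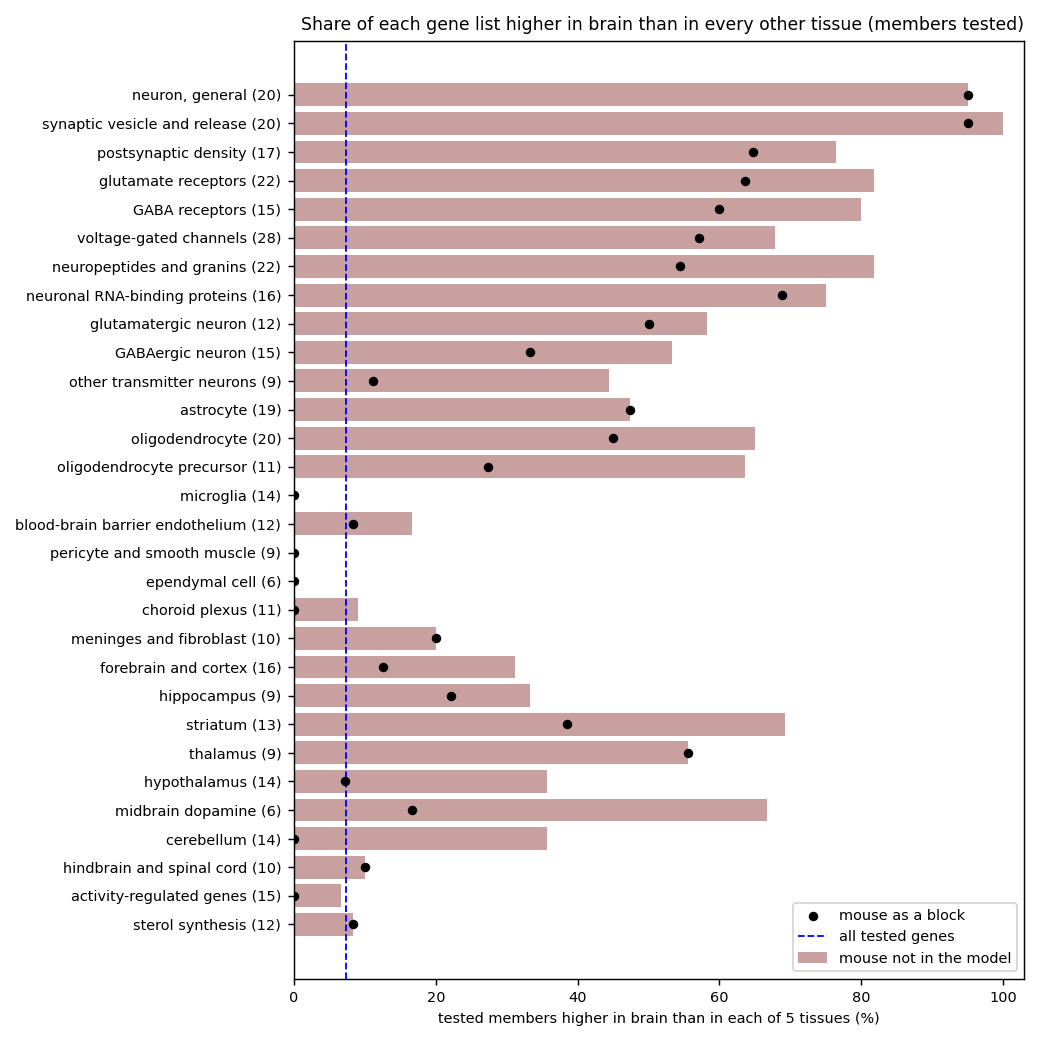
Percent of the tested members of each gene list called higher in brain than each of the 5 tissues (bars) and the same with the mouse as a block (dots), with the number tested in brackets and a dashed line at 7.34%, the share of all tested genes. General neuronal genes reach 95% and the vesicle genes 100%, microglial, pericyte and ependymal genes 0%, and several region lists have dots far to the left of their bars.

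Astrocyte genes were high in brain and often high in some other tissue too. Of 19 genes, all tested, 17 were above the mean of the tissues and 9 above each of them, with or without the block, and the median log2 ratio was 1.56. Slc1a2 and Slc1a3, the transporters that clear glutamate from synapses, read 1412 and 1226 CPM and 436 and 221 CPM. Their highest other values were 159 CPM in a liver and 36.9 in a lung. Aldoc, an aldolase of astrocytes and Purkinje cells, read 916 and 915 CPM against at most 26.2 in a liver. S100b, a calcium-binding protein, read 509 and 477 CPM against at most 10.4 in muscle. Ntsr2, a neurotensin receptor, read 67.6 and 77.1 CPM against at most 0.598, and its call (0.00011) was lost with the block (adjusted p = 0.077).

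Among the 10 astrocyte genes not called, 6 had a library elsewhere above both brain values. Glul, which makes glutamine, read 1278 and 1386 CPM in brain and up to 802 in liver, and missed the call against liver (adjusted p = 1.0). Aldh1l1, a folate enzyme used to mark astrocytes, read 18.6 and 17.5 CPM in brain and 298 ± 40.1 (SD, n = 8) in liver. Slc4a4, a bicarbonate transporter, read 255 and 355 CPM in brain and 1676 in kidney. Gja1, connexin 43, read 83.4 and 90.2 CPM in brain and up to 213 in muscle.

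Myelin genes were strongly brain-weighted: 13 of 20 oligodendrocyte genes were higher than each tissue (9 with the block), with a median log2 ratio of 3.65. Mog and Mag, outer and inner proteins of the sheath, read 72.5 and 66.9 CPM and 200.1 and 210 CPM, against at most 0.299 and 4.38. Cnp, a phosphodiesterase of myelin, had a smaller gap, with 225 and 230 CPM in brain and up to 86.2 in spleen. Opalin and Ermn, late oligodendrocyte proteins, read 26.0 and 22.3 CPM and 81.8 and 101 CPM against at most 0.102 and 0.508, and both calls were lost with the block (adjusted p = 1.0). Of the 7 genes not called, 5 had a library elsewhere above both brain values. Trf, transferrin, read 251 and 270 CPM in brain and up to 19150 in liver. Mal, a raft protein of myelin and kidney tubules, read 232 and 285 CPM in brain and 119 in kidney. Tspan2 read 75.7 and 89.9 CPM in brain and up to 208 in lung.

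Of 11 genes of oligodendrocyte precursors, 7 were called (3 with the block; median log2 ratio 3.86). Olig1 and Olig2, the lineage factors, read 63.0 and 60.7 CPM and 30.7 and 32.1 CPM in brain. Olig2 was at most 0.286 CPM elsewhere, while Olig1 reached 8.31 CPM in a liver. Both calls (adjusted p = 0.0098 and 0.0011) were lost with the block over all mice, at 1.0. A looser contrast, against the mean of 3 tissues, was also fitted in only the 2 mice with a brain library, with the block. Without spleen and kidney there, Olig2 passed it (adjusted p = 5.6e-05), which does not restore the call against each of the 5 tissues. Bcan, brevican of the brain matrix, read 134 and 140 CPM against at most 5.08 in lung. Pdgfra, a receptor of precursors that fibroblasts also carry, read 19.5 and 23.6 CPM in brain and up to 272 in lung, and was not called.

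Microglia share many genes with the macrophages of other organs. By edgeR, 0 of 14 microglial genes were higher in brain than each tissue (1 with an unadjusted p under 0.05 against all 5, and 1 by DESeq2). All tested genes were called at 7.34%, so 0 in so short a list is not far from that share. Above the mean of the tissues were 7 microglial genes, and the median log2 ratio was -0.75. Cx3cr1, the fractalkine receptor, read 53.5 and 48.4 CPM in brain, within the range of lung, which reached 58.2. P2ry12, a purine receptor of resting microglia, read 15.5 and 10.5 CPM in brain and up to 42.4 in lung. Csf1r, the growth factor receptor of macrophages, read 70.3 and 59.4 CPM in brain and up to 340 in spleen. Trem2, a lipid receptor, was the microglial gene with the widest gap here, at 10.6 and 8.36 CPM against at most 5.05, and it missed the call (adjusted p = 0.11).

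Endothelial genes of the blood-brain barrier and of vessels in general were mixed. Of 12, all tested, 2 were higher than each tissue and 1 was lower (median log2 ratio -2.27). Slco1c1, the thyroxine transporter of brain vessels, read 21.8 and 27.9 CPM against at most 1.11 in lung (adjusted p = 0.0031). Slc2a1, the glucose transporter of the barrier, read 70.7 and 80.8 CPM against at most 35.6 (adjusted p = 0.014, and 0.094 with the block). Cdh5, the cadherin of endothelial junctions, read 6.40 and 6.71 CPM in brain and up to 725 in lung, and was lower than each tissue (adjusted p = 0.037, and 0.28 with the block). Pecam1, a general vessel gene, read 17.2 and 19.0 CPM in brain and 360 ± 136 (SD, n = 7) in lung. Cldn5, the claudin of tight vessel junctions, read 4.87 and 4.94 CPM in brain and up to 58.7 in lung. By edgeR 0 of 9 pericyte and smooth muscle genes were called higher, beside 7.34% of all tested genes. There were 0 with an unadjusted p under 0.05 against all 5, and 0 by DESeq2.

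Genes of the ventricles and meninges were uneven. By edgeR 0 of 6 ependymal genes were higher than each tissue (0 with an unadjusted p under 0.05 against all 5, and 0 by DESeq2). For choroid plexus the share was 9.09%, beside 7.34% of all tested genes. Foxj1, the factor that drives motile cilia, read 10.4 and 13.6 CPM in brain and up to 175 in lung, whose airways are ciliated. Of 11 choroid plexus genes, Otx2 alone was called higher (4.10 and 44.5 CPM against at most 0.325; adjusted p = 0.023, and 1.0 with the block). Ttr, the thyroxine carrier that choroid plexus and liver both secrete, read 382 and 1623 CPM in brain and up to 7961 in liver. Among 10 genes of meninges and fibroblasts 2 were called. Ptgds, a prostaglandin D synthase, read 2939 and 1962 CPM against at most 7.45 in a liver, and Igf2, a growth factor, read 131 and 89.9 CPM against at most 23.4 in muscle.

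Members of several enzyme families had their highest means in different tissues. Among aldolases, Aldoc was highest in brain and Aldoa in muscle. No other tissue mean of Aldoc exceeded 1.71% of its brain mean, while brain held 44.9% of the muscle mean of Aldoa. Among enolases, Eno2 read 487 and 495 CPM in brain and at most 5.52 elsewhere, while Eno3 read 4.74 and 7.22 CPM in brain and up to 1165 in muscle. Eno1, the general enolase, was also highest in brain, with a liver mean at 80.6% of the brain mean. Creatine kinase Ckb read 832 and 916 CPM against at most 58.7, and muscle creatine kinase Ckm 1.15 and 2.91 CPM against up to 2554. Ckmt1, a mitochondrial creatine kinase, also had its highest mean in brain, with a muscle mean at 31.6% of it. Glycogen phosphorylase Pygb was less set apart, with 80.7 and 86.3 CPM in brain and a lung mean at 50.3% of the brain mean (adjusted p = 0.017).

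Stathmins, which regulate microtubules, were called in 4 of 4 cases. Among beta tubulins 4 of 8 were called higher (Tubb2a, Tubb2b, Tubb3 and Tubb4a), and Tubb6 was called lower, at 1.02 and 3.29 CPM (adjusted p = 0.019, and 0.060 with the block). Tubulin genes are close copies, and how reads were divided among them is not given in the sources used here.

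**Figure D3:**
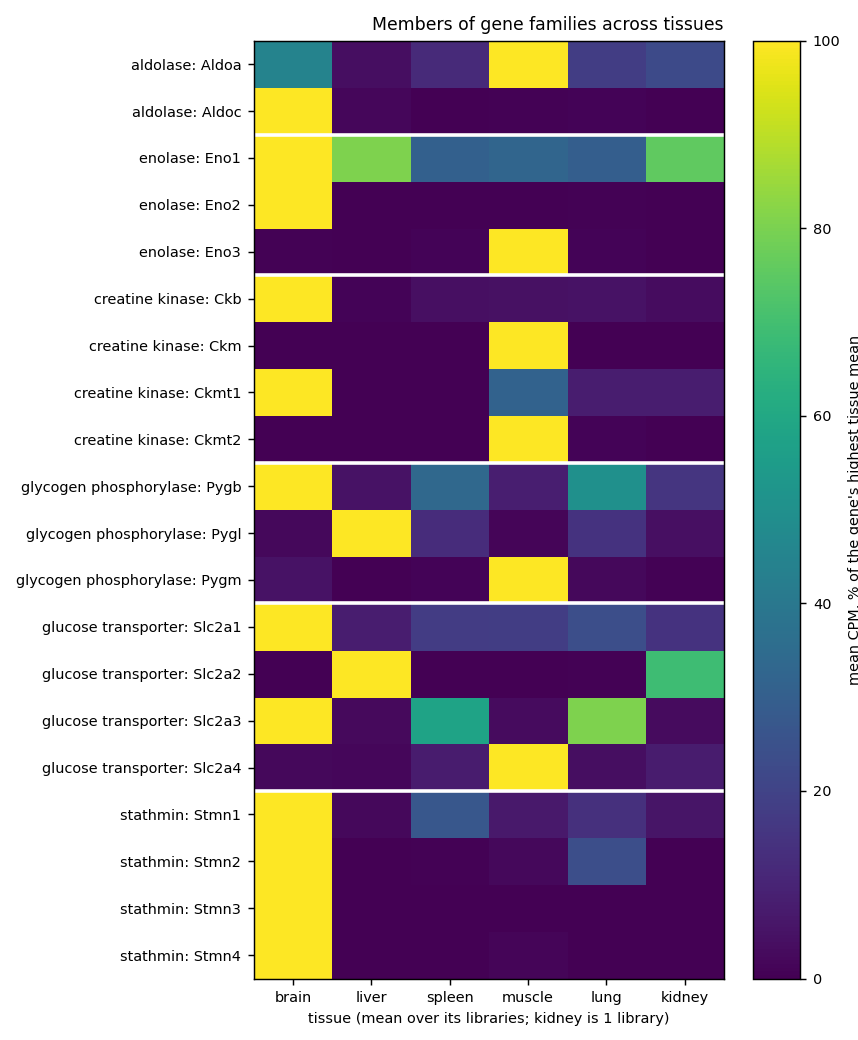
Colour gives the mean CPM of each tissue as a percent of the gene's highest tissue mean (scale 0 to 100), with 1 row per gene of 6 families and 1 column per tissue. Aldoc, Eno2 and Ckb peak in brain with every other tissue mean under 5%, while Eno3, Ckm, Pygm and Slc2a4 peak in muscle and Pygl and Slc2a2 in liver.

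Of the 563 genes lower in brain than each tissue, the 10 with the lowest differences and a mean of 50 CPM or more in every other tissue were Aqp1, Snord13, Tuba1c, H2-K1, Igfbp4, Mknk2, Serping1, Gpx1, B2m and Cat. Aqp1, a water channel of red cells, vessels and kidney tubules, read 5.51 and 7.85 CPM in brain, with tissue means from 60.0 in liver to 477 in lung. Its log2 difference from the mean of the tissues was -5.18 (SE 0.61; largest adjusted p = 6e-07). H2-K1, a class I heavy chain, read 50.5 and 46.4 CPM in brain, 73.9 ± 20.0 (SD, n = 6) in muscle and 1201 ± 512 (SD, n = 6) in spleen. B2m, the class I light chain, read 172 and 164 CPM in brain, inside the muscle range of 110 to 284. The lowest H2-K1 value in muscle, 45.8 CPM, was also below both brains. The call of B2m rested on muscle (adjusted p = 0.049) and was lost with the block (0.29).

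Igfbp4, a binding protein of insulin-like growth factors, read 60.6 and 32.7 CPM in brain against 95.3 CPM or more in every other library. Serping1, the C1 inhibitor, read 31.8 and 32.2 CPM in brain and 71.9 or more elsewhere. Of the peroxide enzymes, Cat (catalase) read 35.6 and 28.7 CPM in brain against 44.7 or more in other libraries. Gpx1 (glutathione peroxidase) read 88.1 and 89.3 CPM against 91.5 or more, and its call was lost with the block (adjusted p = 0.077). The brain value was below all 28 others for each of these 4 genes.

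The fusion has parts from CD74 and from the ErbB ligand neuregulin 1, and 9 genes of that pathway were listed. Of these, 1 was called higher and 1 lower than each tissue. The share called higher, 11.1% (0 with the block), lies near the 7.34% of all tested genes. Lower than each tissue were 2.59% of all tested genes. Nrg3, a neuregulin of neurons, read 11.4 and 8.36 CPM against at most 0.649 (adjusted p = 0.030, and 1.0 with the block). Cd74, the invariant chain of class II presentation, read 8.58 and 5.95 CPM in brain and up to 1435 in lung, and was lower than each tissue (adjusted p = 0.0032). Erbb4, the neuronal neuregulin receptor, read 49.2 and 27.0 CPM against at most 6.09 but missed the call (adjusted p = 0.10, against kidney). Nrg1 read 22.9 and 21.2 CPM in brain and up to 111 in lung. A 3' count at Cd74 or Nrg1 need not tell the fusion from the mouse gene.

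Cyp46a1, which turns over cholesterol in neurons, was the gene called among 12 of the sterol pathway, at 62.9 and 48.9 CPM against at most 4.58 in a liver. Activity-regulated genes, which rise within minutes of stimulation, had 1 call in 15 tested (Arc). Fos read 4.87 and 3.17 CPM in brain and up to 66.8 in lung. The shares called, 8.33% of the sterol list and 6.67% of the activity list, lie near the 7.34% of all tested genes.

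Markers of liver, lung, skeletal muscle and kidney were low in both brains. Summed hepatocyte genes gave 217 and 99.7 CPM, within the 75.4 to 450 CPM of spleen, muscle, lung and kidney libraries and far below the 37910 or more of liver. Lung epithelium genes summed to 123 and 71.8 CPM, skeletal muscle genes to 44.0 and 36.4 and kidney genes to 3.46 and 2.53. Each of these sums was higher in M00237. T cell genes summed to 9.73 and 1.65 CPM, and all 5 B cell genes were lower than the mean of the tissues. Adipocyte genes summed to 18.4 and 15.7 CPM. Erythroid genes were not low: they summed to 15280 and 13850 CPM, above kidney (11160) and within the muscle range of 4642 to 19110. Peripheral nerve genes summed to 66.8 and 57.25 CPM, above every liver, spleen and kidney library and below every muscle and lung library. Pituitary genes summed to 33.2 and 4.81 CPM (Gh 8.19 and 0, Prl 1.15 and 0), with no member above 20.0 CPM. Of 5 tested, 4 were higher than the mean of the tissues, and edgeR called 0 against each tissue. There were 2 with an unadjusted p under 0.05 against all 5, and DESeq2 called 1.

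The brain libraries were then compared with each other. This is 1 library against 1, with no replicate check and no test, and the 95% intervals given cover counting error only. Of 6927 genes at 20 CPM or more in the higher library, 6592 (95.2%) lay within 2-fold. At least 4-fold differences were found in 68 genes (0.982%) higher in M00237 and 32 (0.462%) higher in M00238. Because a gene enters through its higher brain, members low in both drop out, and the list counts below are descriptions and no test. Lists of broad cell types were even, as were most genes. No gene of the general neuronal (20), astrocyte (18) or oligodendrocyte (20) lists at 20 CPM differed 4-fold, which is near the shares over all genes. Their median log2 ratios of M00237 to M00238 were -0.11, -0.12 and -0.20. Lists of transmitters were less even. Of 10 genes of glutamatergic neurons, 4 were at least 4-fold higher in M00237, as were 1 of 10 of GABAergic neurons. Of other transmitters, 4 of 13 genes reached 20 CPM in a brain, and all 4 were at least 4-fold higher in M00237. Several region lists were uneven as well. Depth was 7810440 against 7894883 counts and the mitochondrial share 17.0% against 19.8%.

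**Figure D4:**
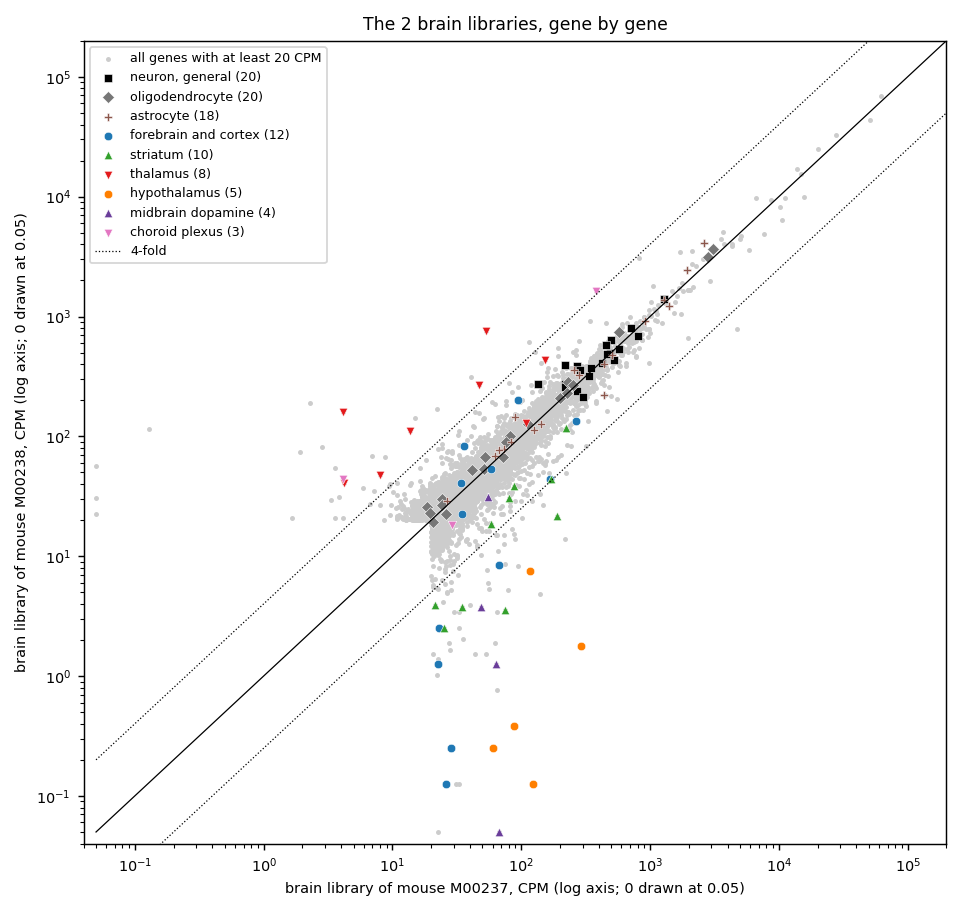
CPM of each of 6927 genes in the brain of M00237 (horizontal) and of M00238 (vertical), both on log axes with 0 drawn at 0.05, a solid line of equality, dotted lines at 4-fold and markers for 9 gene lists. Neuron, astrocyte and oligodendrocyte genes lie along the line of equality. Hypothalamus and most dopamine genes lie below it (higher in M00237) and most thalamus genes above it (higher in M00238).

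Genes of the hypothalamus stood out in M00237. Of the 14 list members, 5 reached 20 CPM in a brain, all through M00237, and all 5 were at least 4-fold higher there. Oxt, oxytocin, read 123 and 0.127 CPM, a ratio of 968 (95% interval 173 to 38290, from 1 count in M00238). Avp, vasopressin, read 87.8 and 0.380 CPM (ratio 231, 78.8 to 1124). Pmch, melanin-concentrating hormone, read 291 and 1.77 CPM (ratio 164, 97.7 to 301). Hcrt, the precursor of the orexins, read 60.1 and 0.253 CPM (2 counts in M00238, ratio interval 65.3 to 1963), and Cartpt, an appetite-linked peptide, 117 and 7.47 CPM. The hypothalamic list summed to 752 CPM in M00237 and 20.1 in M00238.

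Most genes of dopamine neurons went the same way. Of the 6 list members, 4 reached 20 CPM in a brain, and 3 of those were at least 4-fold higher in M00237. Slc6a3, the dopamine transporter, read 66.7 CPM in M00237 and had no count in M00238, at least 176-fold higher against the floor of 3 counts. Th, which makes the dopamine precursor, read 64.1 and 1.27 CPM (ratio 50.6, 27.3 to 106), and Slc18a2, the vesicular monoamine transporter, 48.9 and 3.80 CPM. En1, a midbrain factor, was closer, at 13.8 and 8.11 CPM. The calls of these lists against the other tissues rested on this brain: 5 of 14 hypothalamic and 4 of 6 dopamine genes were higher than each tissue, 1 of each list with the block, and 1 and 0 without the brain of M00237 (for dopamine then 1 at an unadjusted p under 0.05 against all 5). DESeq2 called 1 dopamine gene.

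Forebrain and striatal genes were higher in M00237 as well. Of 12 forebrain genes at 20 CPM, 5 were at least 4-fold higher there and none in M00238, and of 10 striatal genes 5 and none. Tbr1, a factor of deep cortical layers, read 28.4 and 0.253 CPM (ratio 112, 30.7 to 932). Neurod2, a factor of cortical excitatory neurons, read 78.4 and 5.19 CPM. Drd1, a dopamine receptor of striatal neurons, read 34.6 and 3.80 CPM. Penk, the enkephalin precursor, read 189 and 21.7 CPM (ratio 8.71, 7.43 to 10.3). Ppp1r1b, the dopamine signalling protein DARPP-32, read 169 and 43.8 CPM, a smaller gap. Against the other tissues 5 of 16 forebrain and 9 of 13 tested striatal genes were called, 2 and 5 with the block, and 1 and 2 without the brain of M00237.

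The brain of M00238 was marked by thalamic genes, of which 6 of the 8 at 20 CPM were at least 4-fold higher there and none in M00237. Tcf7l2, a factor of thalamic neurons, read 53.5 and 754 CPM, a ratio of 14.1 in favour of M00238 (12.8 to 15.6). Its value in M00237 lay inside the range of the other tissues, which reached 84.2 CPM in spleen. Prkcd, a protein kinase C of thalamic relay neurons, read 4.10 and 161 CPM (ratio 39.4, 27.7 to 57.8). Lef1, a partner of Wnt signalling, read 4.22 and 40.8 CPM, and Ntng1, a netrin-G of thalamic axons, 47.0 and 267 CPM. Slc17a6, the vesicular glutamate transporter of thalamus, was 2.81-fold higher in M00238. Against the other tissues, 5 of 9 thalamic genes were called, with or without the block, and 3 without the brain of M00238.

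By ratio alone, the 10 furthest genes on the side of M00237 were Oxt, Avp, Pmch, Slc6a3, Hcrt, Crym, Hgs, Irs4, Tbr1 and Th. Crym, a thyroid hormone-binding crystallin, read 64.9 and 0.760 CPM, and Irs4, an insulin receptor substrate, read 31.1 and 0.127 CPM with no count in any of the 28 other libraries. Hgs, an endosomal sorting gene, read 33.2 and 0.127 CPM and was likewise uneven between libraries of other tissues, at 0 to 32.6 CPM in lung. On the side of M00238 they were Saa3, Pakap, Shox2, Prkcd, Tnnt1, Ramp3, Tfap2b, Tcf7l2, Slitrk6 and Otx2. Shox2, a homeobox factor, read 2.30 and 191 CPM (ratio 82.9, 52.3 to 140) against at most 2.08 in other tissues. Saa3, an acute-phase protein, read 0.128 and 115 CPM (ratio 900.3, 161 to 35600), and the other tissues were uneven too, at 3.43 to 162 CPM in liver.

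Of 3 choroid plexus genes at 20 CPM, 2 were at least 4-fold higher in M00238, Ttr by 4.25-fold and Otx2 by 10.9-fold. The 6 genes of meninges and fibroblasts at 20 CPM did not go 1 way: the collagen gene Col1a1 was 7.59-fold higher in M00238, while Ptgds and Igf2, given above, were higher in M00237, and the list summed to 3308 and 2559 CPM. Zic1, a factor of cerebellum, thalamus and meninges, read 41.0 and 314 CPM. Defining genes of the cerebellum were near 0 in both libraries. Pcp2, of Purkinje cells, read 0.512 and 0.253 CPM, and Gabra6 was given above. Other genes of that list were present, such as Calb1 at 118 and 66.5 CPM and Cbln1 at 38.0 and 13.8 CPM, which other brain regions also make. Of 14 tested cerebellar genes, 5 were higher than each tissue, 3 without the brain of M00237 and 10 without the kidney library. With the block edgeR called 0 of them (1 at an unadjusted p under 0.05 against all 5), and DESeq2 without a block called 2. Hindbrain Hox genes were at or near 0 in both brains. Hoxa5 read 0.384 and 0.127 CPM against up to 231 in lung and was lower than each tissue (adjusted p = 0.011). Glra1, a glycine receptor subunit, was the single hindbrain and spinal cord gene called higher, of 10 tested, at 42.6 and 59.7 CPM against at most 0.306.

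Of 6 hippocampal genes at 20 CPM, 1 was at least 4-fold higher in M00237 and none in M00238. Of all 9, 3 were higher than each tissue (2 with the block). C1ql2, of the dentate gyrus, read 27.0 and 14.2 CPM against at most 1.20 elsewhere, and C1ql3 read 73.6 and 12.5 CPM. Prox1, the factor of dentate granule cells and of liver, read 49.2 and 91.1 CPM in brain and up to 304 in liver. Olfactory bulb genes called were 2 of 6 tested, Th and Calb2. With the block, and also without the brain of M00237, 1 was called, and Th lost its call with the block (adjusted p = 1.0). Calb2 (calretinin) was even between the brains at 109 and 130 CPM.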

How the data were processed

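RNA of the 30 normal libraries was read by 3' end sequencing. The deposited table holds expected counts per gene and library, made by the authors before deposit, for 54838 genes; 85 have no symbol. For aligner, counter, genome build, annotation and strand setting: not given in the sources used here. Of the values, 8.347% were not whole and were rounded, which changed the summed counts by 0.00054%. The test had been planned for raw counts and was kept for the rounded values. CPM was computed from these counts and each library's total.

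Libraries were grouped by the labels' tissue and tumour mark, and each tissue was its own group in 1 fit (edgeR 4.0.16 in R 4.3.3, TMM scaling, quasi-likelihood test, two-sided, Benjamini-Hochberg adjustment over all tested genes, threshold 0.05). Genes were kept by edgeR's filter at a minimum count of 10. Adjusted p-values in the report are from that fit unless DESeq2 (1.42.0) is named. SEs were derived from the fitted difference and its F statistic. The scripts were tested on simulated data. Within a tissue the libraries came from separate mice by the labels, and no pair of one tissue was alike within sampling noise (smallest chi-square per degree of freedom 10.587).

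Tissues of one mouse share an animal, per the labels, so the mouse number pairs samples. Deviations from the tissue means correlated with a median r of 0.034 over 37 pairs of one mouse and -0.005 over 289 pairs of different mice. The brain libraries were compared without a test, at 4-fold or more and 20 CPM or more in the higher library, with exact 95% intervals.

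The members and gene lists were chosen with earlier results of these data known. Named genes were the list members that carry each description. To these were added the 15 highest differences with 100 CPM or more in both brains, the 10 lowest with 50 CPM or more in every other tissue mean, and the 10 largest ratios in each direction between the brains; genes without a proper name, mitochondrial, Y-linked genes and Xist were passed over. Genes of the RE1 search were named after their values were seen. Alternatives were another scaling, DESeq2, other filters, omitted libraries or tissues, the block and pooling of tissues. Tumour and cultured cell libraries were not used in tests. Some genes are not reported here.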

Additional observations from a re-analysis of the deposited data

Results flagged for a closer look

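Among 40 groups of libraries checked for a value far from the rest, 6 had one, where chance gives about 1 in 20 groups. In liver, the library of M00238 gave 1.43 CPM for Mobp (other livers 0 to 0.286) and 0.918 CPM for Gfap (0 to 0.372), both near the level of a few counts. The astrocyte genes summed to 3669 CPM in the liver of M00246, against 2349 to 2878 in the other 7 livers. Mbp stood at 44.0 CPM in the spleen of M00245, against 33.4 to 36.2 in the other 5. In the lung of M00238 the oligodendrocyte genes summed to 724 CPM (other lungs 421 to 520) and the synaptic vesicle genes to 427 CPM (249.2 to 287). Of the oligodendrocyte genes, Mbp read 52.4 CPM in that lung, Mobp 0.606, Mag 0.303 and Mog 0. M00238 is also the source of 1 of the brain libraries, and the cause of these values was not tested.

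The 12 tumour libraries lie outside the comparison of normal tissues. There Mbp reached 202 CPM and Gfap 142 CPM, above the highest normal library outside the brain (92.3 and 6.84 CPM). Each was in a sarcoma library of M00245, a mouse with more than a single sarcoma library. The lowest tumour values were 1.56 and 0.133 CPM.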

How the results depend on the processing

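Under relative log expression scaling, no filter and removal of mitochondrial and haemoglobin genes, all 4 counts over the whole table stayed within 1.5 times the value reported. Of 2100 comparisons of a named gene under an alternative (182 genes, 12 settings), 1962 kept their direction and side of the threshold, 116 no longer passed, 11 newly passed and 11 reversed. With the mouse as a block (replicate block), 4084 genes were higher and 3358 lower than the mean, and 1157 and 426 than each tissue. Of 216 calls within lists 159 are called and 6 others are gained. Most list counts that this pairing changed stand in the report. Besides those, 1 blood-brain barrier gene was called higher with the block (2 without). For choroid plexus and for activity-regulated genes 0 were called (1 each without). Without one brain library, genes lower than the mean numbered 1870 to 1931 (3820 with both) and genes lower than each tissue 267 to 283 (563). Lower than each numbered 883 without the kidney library. A filter at a mean of 5 CPM left 3170 genes higher than the mean. Taking the tissues as 1 pooled group gave 2373 higher and 700 lower, with a median log2 difference over all genes of -0.49, and it reversed Ttr (-1.80), Foxj1 (-0.588) and Prox1 (-0.905). Without muscle, Eno3 became 0.129. Leaving out M00237 gave Slc6a3 -1.70, Baiap2 -0.618 and Crym -2.36, against 10.07, 2.12 and 4.05 without M00238. Leaving out M00238 gave Tcf7l2 -0.019, Prkcd -2.68, Saa3 -4.03 and Pakap -6.46, against 3.77, 2.59, 5.56 and 5.05 without M00237. DESeq2 called fewer genes of some lists: 1 of other transmitters, 4 of precursors, 3 of forebrain, 1 of olfactory bulb and 0 of choroid plexus (1 by edgeR). Between the brains, 156 and 100 genes were 4-fold apart at 5 CPM (M00237 and M00238 higher), and 219 and 116 at a fold of 2. The cause of these changes was not tested. With 2 brains, which differ in region genes, the spread rests on the other tissues, and genes under about 0.5 CPM cannot be read.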
